A study of Mus musculus with 16 samples.

Results

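The genes described here mark type 1 conventional dendritic cells: Xcr1, Clec9a, Itgae, Irf8, Batf3, Cadm1, Wdfy4, Gcsam, Naaa and Snx22. They were chosen by name, and the probe set with the highest mean over all arrays stood for a gene with several. All 10 were measured, of 19938 named genes in all, and Wdfy4 was the only member with 2 probe sets. The RNA came from mouse lung myeloid cells that flow sorting had selected on CD11c, MHC2 and CD11b, and that the labels name CD11b+ DCs. Every mouse was a C57BL/6 host carrying Lewis lung carcinoma (LLC), a syngeneic mouse lung tumour line put into the airways, so that no array came from a tumour-free lung. The arrays were 8 labelled tumoral, from the tumour, and 8 labelled peritumoral, from lung tissue of tumour-bearing mice outside it. No age, sex or number of pooled animals is given, and the labels do not tie arrays to animals, so that p-values measure only the spread between these samples, which may be technical.

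Type 1 dendritic cells take up dead cells and present their antigens to CD8 T cells, a process called cross-presentation. Their development depends on the transcription factors IRF8 and BATF3. In the mouse lung they are known as the CD103+ dendritic cells and carry little CD11b, whereas the other conventional dendritic cells carry CD11b and depend more on IRF4. The sort on CD11b is therefore aimed at cells other than those the members mark. The genes of the sorting markers had log2 values of at least 11.07 for Itgax, 10.18 for Itgam and 13.06 for H2-Ab1 in all 16 arrays. Detection calls were not analysed here, so whether a low member such as Xcr1 or Gcsam stood above background is not known, and levels of different probe sets are not compared. In sorted bulk RNA, fewer cells of a type and less RNA per cell cannot be told apart.

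The promoters of 8 members were found in RefSeq sequences of the GRCm38.p6 build, as 10 windows from 250 bases before to 50 bases after a start site. Itgae and Cadm1 were not matched. Those of Xcr1 (chr9:123861980-123862279, minus strand), Clec9a (chr6:129408612-129408911, plus strand) and Gcsam (chr16:45610190-45610489, plus strand) are shown, since Xcr1 and Clec9a correlated over all 16 arrays and Gcsam had the smallest p of the members. Each reads 5′ to 3′ along its gene, and capitals mark matches to GAGGAA, the core bound by the myeloid factor PU.1, on either strand.
Xcr1: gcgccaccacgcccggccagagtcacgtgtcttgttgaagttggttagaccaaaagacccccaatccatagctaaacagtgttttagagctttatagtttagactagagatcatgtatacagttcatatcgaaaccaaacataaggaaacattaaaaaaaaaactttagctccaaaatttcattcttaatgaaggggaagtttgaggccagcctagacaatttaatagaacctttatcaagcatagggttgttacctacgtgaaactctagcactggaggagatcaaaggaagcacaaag
Clec9a: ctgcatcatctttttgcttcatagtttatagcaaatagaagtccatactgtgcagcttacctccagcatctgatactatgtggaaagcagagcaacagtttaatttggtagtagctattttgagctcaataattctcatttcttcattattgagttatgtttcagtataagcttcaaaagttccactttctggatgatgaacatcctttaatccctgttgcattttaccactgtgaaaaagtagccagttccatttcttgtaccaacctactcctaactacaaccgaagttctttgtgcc
Gcsam: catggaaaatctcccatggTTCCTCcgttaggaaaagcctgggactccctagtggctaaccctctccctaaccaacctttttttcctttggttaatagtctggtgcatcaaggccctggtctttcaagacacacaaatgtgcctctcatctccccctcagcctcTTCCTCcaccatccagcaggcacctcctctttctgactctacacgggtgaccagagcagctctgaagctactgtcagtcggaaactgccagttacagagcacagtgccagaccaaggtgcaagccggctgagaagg
The Gcsam window holds 2 matches and that of Batf3 holds 1. No other member window had a match, and 28.3% of all 32851 promoter windows did. That motif was chosen after 5 motifs of the BATF and IRF factors, searched on both strands, had given no match in the 10 windows. These were the AP-1 site TGANTCA (in 7.81% of all windows), the AP-1 and IRF composite element with a gap (0.119%) and without one (0.125%), the ETS and IRF composite element (2.72%) and the core of the interferon-stimulated response element (3.44%). Both AP-1 and IRF composite elements contain the AP-1 site. These letters are absent only from these windows, and elements farther from the start sites were not searched.

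Some arrays stood apart in ways the labels do not name. On the first principal component, which held 45.8% of the variance over all named genes, tumoral 1, 4 and 7 and peritumoral 3 and 6 lay between 24.96 and 37.99, whereas every other array lay at 8.39 or lower. These 5 arrays hold the third of every 3 places in the deposited order (positions 9, 12, 15, 3 and 6). Their place was noticed from the values and has no stated meaning, so values are described by it, and it enters as a block, or by leaving these 5 arrays out, only in alternatives added after the data were seen. Peritumoral 4, at -51.4, and to a lesser degree peritumoral 7 had high values of lung structural cell genes. The mean of the endothelium and fibroblast list, as log2 values centred per gene, ran from -0.61 to -0.32 in tumoral arrays. In peritumoral arrays it ran from -0.22 to 3.03, with 3.03 in peritumoral 4 and 1.03 in peritumoral 7. Array medians lay between 6.75 and 6.95.

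No member passed the test between the labels. limma called 0 of 10 members at an adjusted p under 0.05, where it called 0% of all 19938 genes. At an unadjusted p under 0.05 there were 3 members, against 11.5% of all genes (2292). Of these Cadm1 was higher in tumoral arrays, as were 5.6% of all genes, and Gcsam and Itgae were lower, as were 5.9%. The groups overlapped in all 10 members, and they did not overlap in 0.0853% of all genes. Of the members 5 had the higher mean in tumoral arrays, and so did 41.7% of all genes, and 5 had the lower mean, as did 58.3%. The median difference, tumoral minus peritumoral on the log2 scale, was -0.02 over the members and -0.02 over all genes.

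**Figure D1:**
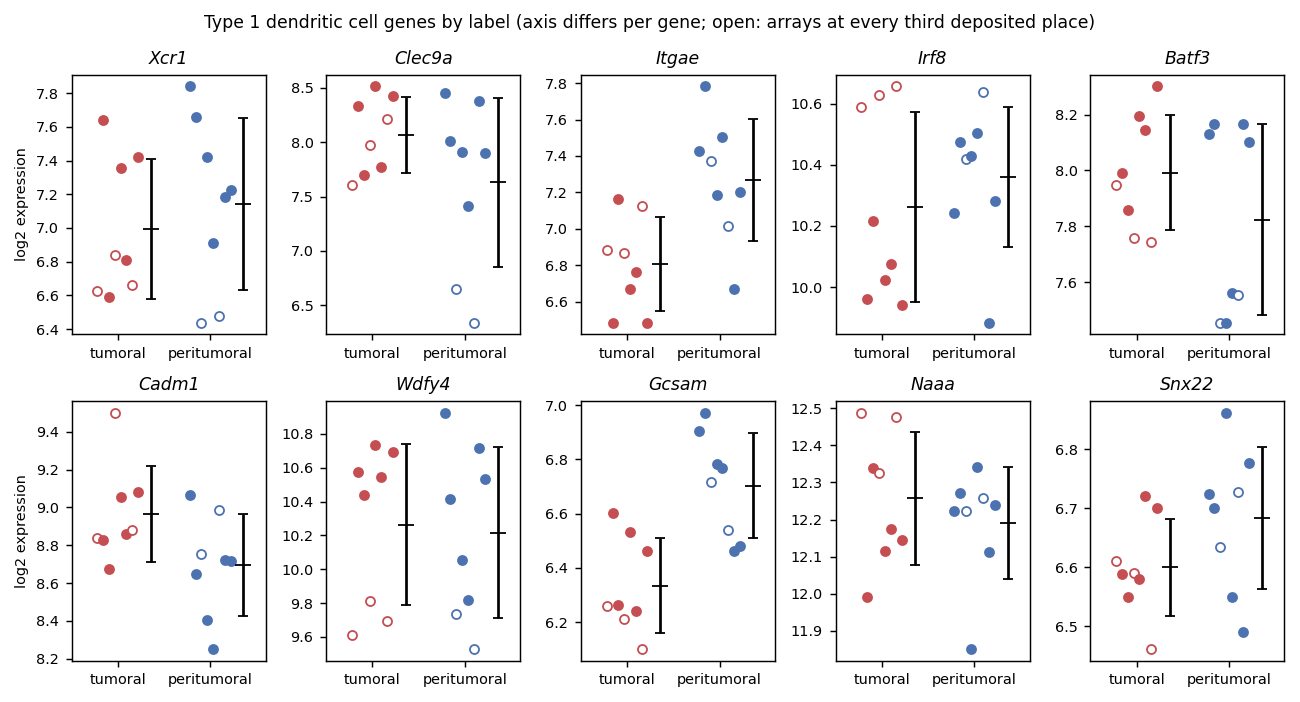
Log2 expression of each member (vertical axis, scaled separately per gene) in the 8 tumoral arrays (red, left) and the 8 peritumoral arrays (blue, right). Each point is 1 array, open points are the arrays at the third of every 3 deposited places, and bars give mean ± SD; all 8 tumoral values of Itgae and of Gcsam lie under their peritumoral means of 7.27 and 6.70.

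Among the surface receptors, Itgae had the smallest p. Itgae encodes CD103, the alpha E integrin that pairs with beta 7 to bind E-cadherin on epithelium, and it is also made by tissue-resident T cells. Its log2 values had a lowest, median and highest of 6.49, 6.81 and 7.17 in tumoral arrays, against 6.67, 7.29 and 7.78 in peritumoral arrays. All 8 tumoral arrays lay under the peritumoral mean and 3 under every peritumoral array, and the overlap came mainly from peritumoral 7, the lowest of its group. The means were 6.81 ± 0.26 and 7.27 ± 0.34 (tumoral and peritumoral, SD, n = 8 each). The difference was -0.46 (SE 0.14; limma, unadjusted p = 0.00377, adjusted p = 0.257), and the exact permutation p was 0.00855 before adjustment and 0.233 after it. By place in the deposited order the difference was -0.55, -0.53 and -0.23 at the first, the second and the third place. Each place holds only 2 or 3 arrays per label.

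The other integrin chain and the T cell markers were read beside Itgae. Itgb7, chosen for its role as the partner chain, ran from 8.12 to 9.35 in tumoral and from 7.83 to 9.31 in peritumoral arrays, a difference of 0.03 (limma, adjusted p = 0.975). All 8 T cell markers measured had the lower mean in tumoral arrays, with a median difference of -0.44, and 0 passed. The mean of that list ran from -0.45 to 0.01 in tumoral and from -0.25 to 1.38 in peritumoral arrays. Cd5 differed by -0.37 and Cd3g, a chain of the T cell receptor complex, by -0.94 (limma, adjusted p = 0.321 and 0.352). In peritumoral 4, where the list was highest, Itgae measured 7.18, below the median of its group. The part of T cells in the Itgae values was not tested.

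Xcr1, the receptor that brings these cells to XCL1 released by CD8 T and NK cells, did not separate the labels. Its lowest, median and highest log2 values were 6.59, 6.82 and 7.64 in tumoral arrays, against 6.44, 7.20 and 7.84 in peritumoral arrays. The ranges lay almost on top of each other, with tumoral 2 and peritumoral 1 the highest of their groups. The difference was -0.15, with a 95% interval of -0.60 to 0.29 (limma, adjusted p = 0.818), which leaves room for a difference in either direction. Xcl1, the ligand gene, differed by -0.26 (limma, adjusted p = 0.481) and was chosen for that role.

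Clec9a varied more between arrays than any other member. It encodes DNGR-1, a lectin that binds actin filaments laid bare in dead cells. Its lowest, median and highest log2 values were 7.60, 8.10 and 8.51 in tumoral arrays, against 6.34, 7.91 and 8.45 in peritumoral arrays. The 2 lowest values, 6.65 and 6.34, were those of peritumoral 3 and 6, and the other 6 peritumoral arrays lay between 7.41 and 8.45, within or near the tumoral range. The means were 8.07 ± 0.35 and 7.63 ± 0.78 (tumoral and peritumoral, SD, n = 8 each). The difference was 0.43, with a 95% interval of -0.14 to 1.01 (limma, adjusted p = 0.546). It was 0.17, -0.04 and 1.44 at the first, the second and the third place of the deposited order (2 or 3 arrays per label at each), and 0.14 over the 11 arrays outside the third place. With the place as a block, a fit chosen after the values were seen, it was 0.50. The interval there was 0.10 to 0.89 (limma, adjusted p = 0.168). Whether the difference varied with the place was not tested.

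The transcription factors lay in opposite directions, each within its spread over all 16 arrays. Irf8, needed for the development of these cells and also active in plasmacytoid dendritic cells, monocytes and B cells, had a lowest, median and highest of 9.94, 10.15 and 10.66 in tumoral arrays, against 9.88, 10.42 and 10.64 in peritumoral arrays. Tumoral 1, 4 and 7 measured 10.6 to 10.7, and the other 5 tumoral arrays 10.22 or less. The difference was -0.10, with a 95% interval of -0.37 to 0.17 (limma, adjusted p = 0.803). By place in the deposited order it was -0.21, -0.27 and 0.10 (2 or 3 arrays per label at each). Over the 11 arrays outside the third place, chosen after the values were seen, it was -0.26. The interval there was -0.49 to -0.03 (limma, adjusted p = 0.773). Batf3, the partner factor of the type 1 lineage, had 7.74, 7.97 and 8.30 in tumoral arrays, against 7.46, 7.83 and 8.17 in peritumoral arrays. The peritumoral values split into 4 of 8.10 or more (peritumoral 1, 2, 7 and 8) and 4 of 7.56 or less, and every tumoral array lay above the lower 4. Its difference was 0.17, with an interval of -0.11 to 0.44 (limma, adjusted p = 0.640).

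Of the genes of adhesion and antigen handling, Cadm1 lay higher in tumoral arrays and Wdfy4 did not separate the labels. Cadm1, an adhesion molecule of the nectin-like family that epithelium also makes, had 8.67, 8.87 and 9.501 in tumoral arrays, against 8.25, 8.72 and 9.06 in peritumoral arrays. Tumoral 4 was the highest array, and 7 of 8 tumoral arrays lay above the peritumoral mean. The difference was 0.27 (SE 0.12; limma, unadjusted p = 0.0413, adjusted p = 0.413), and the exact permutation test gave an unadjusted p of 0.0561. All 12 lung epithelium markers had the lower mean in tumoral arrays with 0 called, Hopx at -0.57 and Krt8 at -0.65 (limma, adjusted p = 0.232 and 0.257). The median difference of that list was -0.58, and -0.20 without peritumoral 4 and 7, and its part in the Cadm1 values was not tested. Wdfy4, a BEACH-domain protein needed for cross-presentation, had 9.61, 10.49 and 10.74 in tumoral arrays, against 9.53, 10.23 and 10.93 in peritumoral arrays. Its difference was 0.05, with an interval of -0.42 to 0.52 (limma, adjusted p = 0.958). It turned to between -0.050 and -0.0086 when tumoral 5 or 8 or peritumoral 3, 5 or 6 was left out. The other Wdfy4 probe set overlapped in the same way, at 9.49 to 10.69 in tumoral and 9.27 to 10.69 in peritumoral arrays.

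Gcsam had the smallest p of the members. It encodes a signalling adaptor of germinal centre B cells, where it restrains cell motility, and is used as a marker of type 1 dendritic cells in expression profiles. Its lowest, median and highest log2 values were 6.10, 6.26 and 6.602 in tumoral arrays, against 6.46, 6.74 and 6.97 in peritumoral arrays. Of the tumoral arrays 5 lay under every peritumoral array, and the overlap lay between 6.46 and 6.602. The means were 6.33 ± 0.18 and 6.70 ± 0.19 (tumoral and peritumoral, SD, n = 8 each). The difference was -0.37 (SE 0.09; limma, unadjusted p = 0.000731, adjusted p = 0.239), with an exact permutation p of 0.00233 before adjustment and 0.210 after it. By place in the deposited order it was -0.18, -0.49 and -0.44 at the first, the second and the third place (2 or 3 arrays per label at each). All 7 B cell markers measured had the lower mean in tumoral arrays with 0 called, Cd79b at -0.41 and Pax5 at -0.28 (limma, adjusted p = 0.546 and 0.633). That list ran from -0.60 to 0.26 in tumoral and from -0.65 to 2.03 in peritumoral arrays, with 2.03 in peritumoral 4. The median difference of the list was -0.27, and 0.0039 without peritumoral 4 and 7. The part of B cells in the Gcsam values was not tested.

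Naaa and Snx22 varied least between arrays. Naaa, a lysosomal amidase that breaks down fatty acid ethanolamides, had 11.99, 12.25 and 12.49 in tumoral arrays, against 11.85, 12.23 and 12.34 in peritumoral arrays. Its difference was 0.07 (limma, adjusted p = 0.787), and it was -0.0027 without peritumoral 4 and 7. Snx22, a sorting nexin of endosomal transport, had 6.46, 6.59 and 6.72 in tumoral arrays, against 6.49, 6.71 and 6.86 in peritumoral arrays, a difference of -0.08 (limma, adjusted p = 0.605). The SD of Clec9a over the 16 arrays was larger than that of 97.6% of all genes, that of Wdfy4 than 95.05%, that of Xcr1 than 94.5% and that of Itgae than 91.2%. For Naaa the share was 42.2% and for Snx22 8.89%.

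Itgae and Gcsam passed the test over all genes in some fits with fewer arrays or a further term. With the place in the deposited order as a block, limma gave differences of -0.45 for Itgae and -0.36 for Gcsam (adjusted p = 0.0822 and 0.0795), and 0 genes passed. With that block and without peritumoral 4 and 7 the differences were -0.50 and -0.44 (limma, adjusted p = 0.0150 and 0.00390), among 1263 genes called. Without peritumoral 7 and 8 they were -0.57 and -0.45 (limma, adjusted p = 0.0295 and 0.0158), among 522 genes called. Peritumoral 7 and 8 held the lowest peritumoral values of Gcsam (6.46 and 6.48), and peritumoral 7 the lowest of Itgae (6.67). Leaving them out therefore widens both differences, so that passing in these fits is not separate support. Over the 11 arrays outside the third place the differences were -0.58 and -0.31 (limma, adjusted p = 0.773 for each). The other 8 members passed in no fit run.

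**Figure D2:**
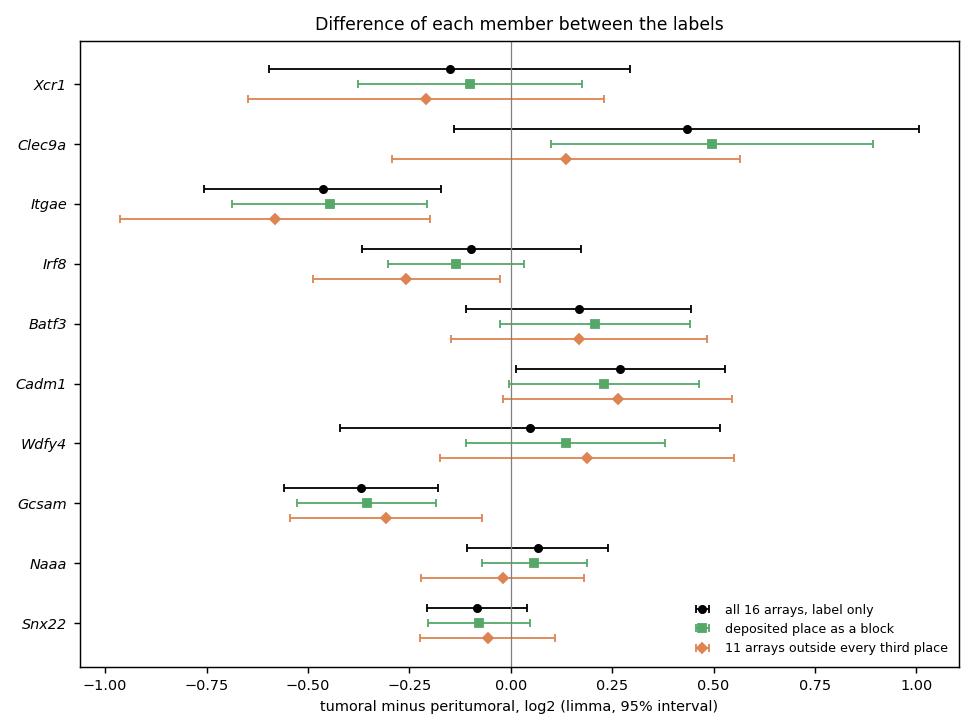
Difference of each member, tumoral minus peritumoral on the log2 scale (horizontal axis), with 95% intervals from limma for all 16 arrays (black), with the deposited place as a block (green) and for the 11 arrays outside the third place (orange). The intervals of Itgae and Gcsam lie under 0 in all 3 fits before any adjustment for the number of genes, and the Clec9a difference runs from 0.14 to 0.50.

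To ask whether Itgae differed by another amount than the rest, its log2 value minus that of each other member was taken within each array and compared between the labels. Itgae was known to differ before this test was set, so its p-values are a description. Of 9 pairs 5 passed an exact two-sided permutation test after Benjamini-Hochberg adjustment. Relative to Naaa the difference was -0.53 (exact permutation, adjusted p = 0.0140), to Cadm1 -0.73 (0.0273), to Batf3 -0.63 (0.0399), to Irf8 -0.37 (0.0399) and to Clec9a -0.90 (0.0442). Relative to Gcsam it was -0.10 (exact permutation, adjusted p = 0.566), to Xcr1 -0.31 (0.342), to Wdfy4 -0.51 (0.167) and to Snx22 -0.38 (0.0543). The pair with Naaa passed whichever single array was left out, the count of pairs moved between 1 and 6 as single arrays were left out, and 0 pairs passed over the 11 arrays outside the third place.

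Members were also read at the third place of the deposited order against the other places. At the third place Wdfy4 measured 9.53 to 9.81, against 9.82 to 10.93 in the other 11 arrays. It was the 1 member of 10 whose ranges did not overlap there, and 12% of all 19938 genes did not overlap between these arrays either. Xcr1 measured 6.44 to 6.84 at the third place and 6.59 to 7.84 elsewhere. Irf8 went the other way, with 10.42 to 10.66 at the third place and 9.88 to 10.50 elsewhere. Clec9a measured 6.34 to 8.22 at the third place and 7.41 to 8.51 elsewhere. The ranges of Xcr1, Irf8 and Clec9a overlapped. The conventional dendritic cell list, which includes Flt3 and Zbtb46, ran from -0.53 to -0.12 at the third place. Elsewhere it ran from -0.22 to 0.36, so that these ranges overlapped. Between the labels, 9 of its 10 genes had the higher mean in tumoral arrays, and 0 were called. Some lists of other cells were low at the third place too. The lung epithelium list lay at -0.63 to -0.38 there and at -0.17 or higher elsewhere. For the B cell list this was -0.65 to -0.41 against -0.09 or higher, and for the plasmacytoid list -0.35 to -0.21 against -0.04 or higher. The list of other type 1 lineage genes lay at -0.48 to -0.10 there, against -0.03 or higher elsewhere. The T cell, NK cell, alveolar macrophage, CD11b+ and structural lists overlapped between these arrays. These values describe arrays set apart after the values were seen, and no test was made of them.

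**Figure D3:**
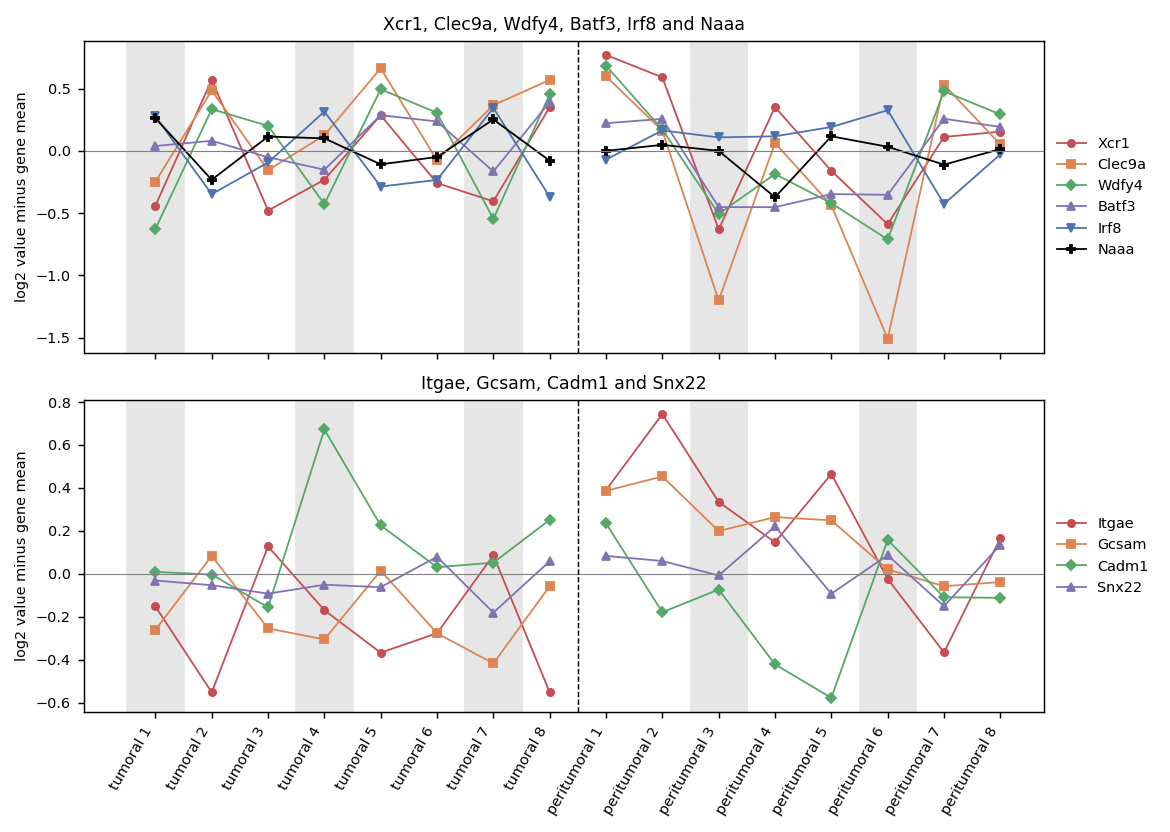
Log2 value minus the gene's mean over 16 arrays (vertical axis) for each array, tumoral arrays left and peritumoral arrays right of the dashed line, with the arrays at the third of every 3 deposited places shaded. In the shaded arrays Wdfy4 is low, and Irf8 lies toward its high end with overlap. The mean difference, tumoral minus peritumoral, is negative at each place for Itgae (-0.55, -0.53 and -0.23) and for Gcsam (-0.18, -0.49 and -0.44). Cadm1, Batf3, Wdfy4 and Snx22 also keep the same sign at every place. Each place holds only 2 or 3 arrays per label.

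Correlations between members, with the label means removed, depended on which arrays were used. Over all 16 arrays 10 of 45 pairs passed a permutation test after Benjamini-Hochberg adjustment, 8 of them with positive r, and 3 passed without the 2 arrays farthest from the median. The negative pairs were Irf8 with Wdfy4 (r = -0.864) and with Batf3 (r = -0.656; permutation, adjusted p = 0.0009 and 0.0374). Irf8 and Wdfy4 also passed without the 2 farthest arrays (r = -0.851, permutation, adjusted p = 0.0054). Their r was -0.973 within tumoral and -0.759 within peritumoral arrays (permutation, adjusted p = 0.0368 and 0.155). The 5 arrays at the third place form a cluster of their own. The r over all 16 arrays, and that within each label, therefore also reflects the difference between the clusters. Among tumoral arrays, Wdfy4 measured 9.61 to 9.81 in tumoral 1, 4 and 7, and 10.44 or more in the rest. Over the 11 arrays outside the third place, a set chosen after the values were seen, 7 pairs passed, all with positive r. With the means of each label at each place removed 4 passed, all positive, so that no negative pair passed in either set. The 11 arrays still join the first and second places. Their means also differed for some members, as for Clec9a (8.34 and 7.76) and Itgae (6.82 and 7.28). Within tumoral arrays 7 pairs passed, 2 of them positive, and within peritumoral arrays 1 pair passed. By rank correlation (rho) 0 pairs passed within either label. Over the 6 arrays left without the 2 farthest 0 passed either, the smallest adjusted p being 0.125 and 0.572 by permutation (tumoral and peritumoral). With so few orders of 6 arrays, no single pair could pass on its own after adjustment over 45 pairs. That count of 0 therefore says little about these pairs.

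Wdfy4 went with Batf3 and with Clec9a in several of these sets. Its r with Batf3 was 0.825 over 16 arrays, 0.844 over 11 arrays and 0.849 over 16 arrays with the deposited place removed (permutation, adjusted p = 0.00375, 0.00788 and 0.00225). Its r with Clec9a was 0.746, 0.809 and 0.828 in the same 3 sets (permutation, adjusted p = 0.00608, 0.0119 and 0.00225). Xcr1 and Clec9a, the receptors for XCL1 and for dead cells, had r = 0.847 over 16 arrays, 0.786 over 11 arrays and 0.431 with the place removed (permutation, adjusted p = 0.000900, 0.0386 and 0.222). Removing the place subtracted means of only 2 or 3 arrays each, and the remainders were permuted freely. All p-values given with the place removed are therefore likely too small. In that set 1 pair passed without the 2 farthest arrays.

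The pairs of Cadm1 differed between the sets. Cadm1 and Wdfy4 had r = 0.943 and rho = 0.927 over 11 arrays (permutation, adjusted p = 0.00135 and 0.00720), but r = 0.067 over all 16 (adjusted p = 0.862) and 0.756 with the place removed (adjusted p = 0.00709). Cadm1 and Batf3 had r = 0.833 over 11 arrays and 0.206 over 16. Cadm1 and Clec9a had r = 0.824 over 11 arrays and 0.031 over 16. Itgae and Irf8 had r = 0.865 over 11 arrays and 0.602 over 16 (permutation, adjusted p = 0.00788 and 0.0555). Xcr1 and Itgae had r = -0.903 within tumoral arrays and 0.305 within peritumoral arrays (permutation, adjusted p = 0.0368 and 0.985), and this difference was not tested. Within tumoral arrays that pair did not pass by rho (permutation, adjusted p = 0.0513) or without the 2 farthest arrays (permutation, adjusted p = 0.169). The last of these used 6 arrays, where no single pair could pass on its own. Without the 2 arrays farthest from the median the 7 pairs of the 11 arrays had r between 0.591 and 0.852 over 9 arrays, and 0 passed, the smallest adjusted p being 0.0558 by permutation.

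**Figure D4:**
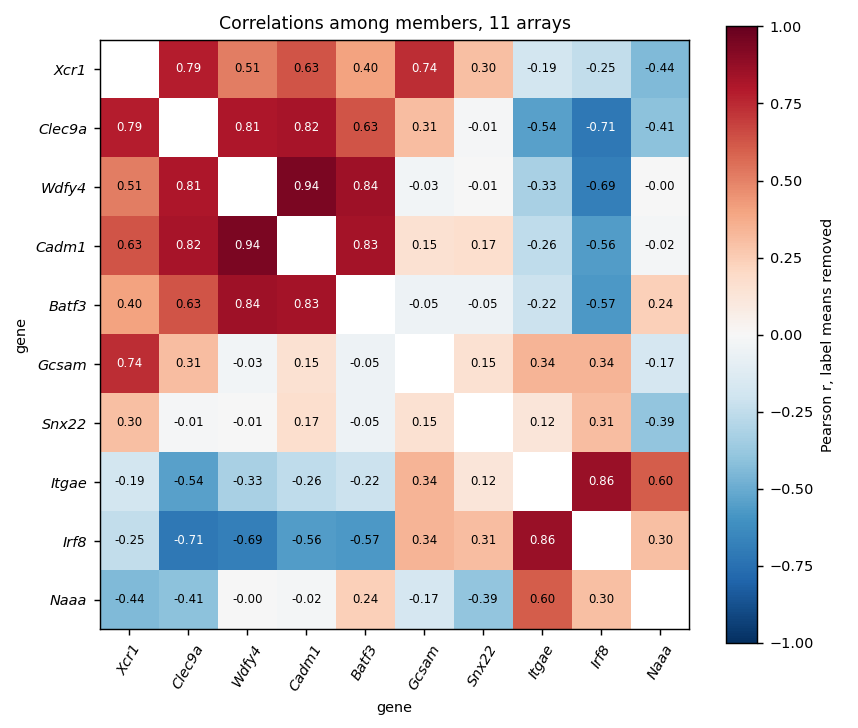
Pearson r between members over the 11 arrays outside the third place, with label means removed (colour from -1 to 1, value in each cell). These arrays join the first and second places, whose means also differ for some members. Xcr1, Clec9a, Wdfy4, Cadm1 and Batf3 form a block of positive values, with Wdfy4 and Cadm1 highest at 0.943 (0.067 over all 16 arrays), and Irf8 is negative with all of these 5 genes.

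By correlation with single members over the 16 arrays, given as a description, the 3 genes most like Xcr1 were Olfr446 (r = 0.902, or 0.845 over the 11 arrays), E130308A19Rik (0.877 and 0.892) and Olfr1123 (0.874 and 0.825). Those most like Clec9a were Nabp1 (0.911 and 0.764), Il12rb2, a chain of the IL-12 receptor (0.909 and 0.667), and Herpud1, an endoplasmic reticulum stress gene (0.906 and 0.843). Those most like Itgae were Mxd1, a MAX dimerization partner (0.886 and 0.958), Olfr806 (0.876 and 0.919) and Gtpbp1 (0.865 and 0.896). They were picked as the highest of all non-member genes, so that high values were bound to appear.

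Other genes of the type 1 lineage did not pass either. Of 25 listed genes 24 were measured, and 0 were called. Of these 15 had the higher and 9 the lower mean in tumoral arrays, with a median difference of 0.05 against -0.02 over all genes. Nfil3, a factor upstream in the development of these cells, ran from 10.70 to 10.98 in tumoral and from 10.17 to 10.80 in peritumoral arrays, a difference of 0.34 (limma, adjusted p = 0.246). Rab7b, a GTPase of late endosomes, ran from 10.16 to 10.71 in tumoral and from 9.0002 to 10.31 in peritumoral arrays, a difference of 0.43 (limma, adjusted p = 0.311). These were the only 2 at an unadjusted p under 0.05. Tlr3, the endosomal sensor of double-stranded RNA, differed by 0.06 and Cd8a by -0.10 (limma, adjusted p = 0.887 and 0.743); both were named for their role.

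Markers of the sorted population and of other cells gave the surroundings of these values. Itgax differed by 0.15, Itgam by 0.09 and H2-Ab1 by 0.04 (limma, adjusted p = 0.508, 0.888 and 0.818). Of 12 CD11b+ dendritic cell markers 8 were higher on average in tumoral arrays with 0 called, Klf4 at 0.24 and Cx3cr1 at 0.18, and Ciita of the conventional list differed by 0.18. All 6 plasmacytoid markers were lower on average with 0 called, Tcf4 at -0.20 and Ccr9 at -0.27, and that list ran from -0.35 to 0.20 in tumoral and from -0.26 to 0.64 in peritumoral arrays. All 8 NK cell, 9 alveolar macrophage and 12 endothelium and fibroblast markers were lower on average with 0 called. Their leading genes were Klre1 (-0.11) and Eomes (-0.37), Krt79 (-0.30) and Car4 (-0.89), and Dcn (-2.02) and Col3a1 (-0.37). Without peritumoral 4 and 7 the CD11b+ list had 6 genes higher and 6 lower on average, and the plasmacytoid list 2 higher and 4 lower. In the same arrays the NK list had 2 genes higher and 6 lower on average, with a median difference of -0.06 against -0.37 with all arrays. The alveolar macrophage list then had 4 higher and 5 lower (-0.0096 against -0.17), and the endothelium and fibroblast list 2 higher and 10 lower (-0.33 against -0.72). The NK list reached 2.15, the alveolar macrophage list 1.47 and the plasmacytoid list 0.64 in peritumoral 4. The member mean was -0.03 in that array, and ran from -0.12 to 0.12 in tumoral and from -0.26 to 0.33 in peritumoral arrays. The part of these cells in the members' values was not tested.

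**Figure D5:**
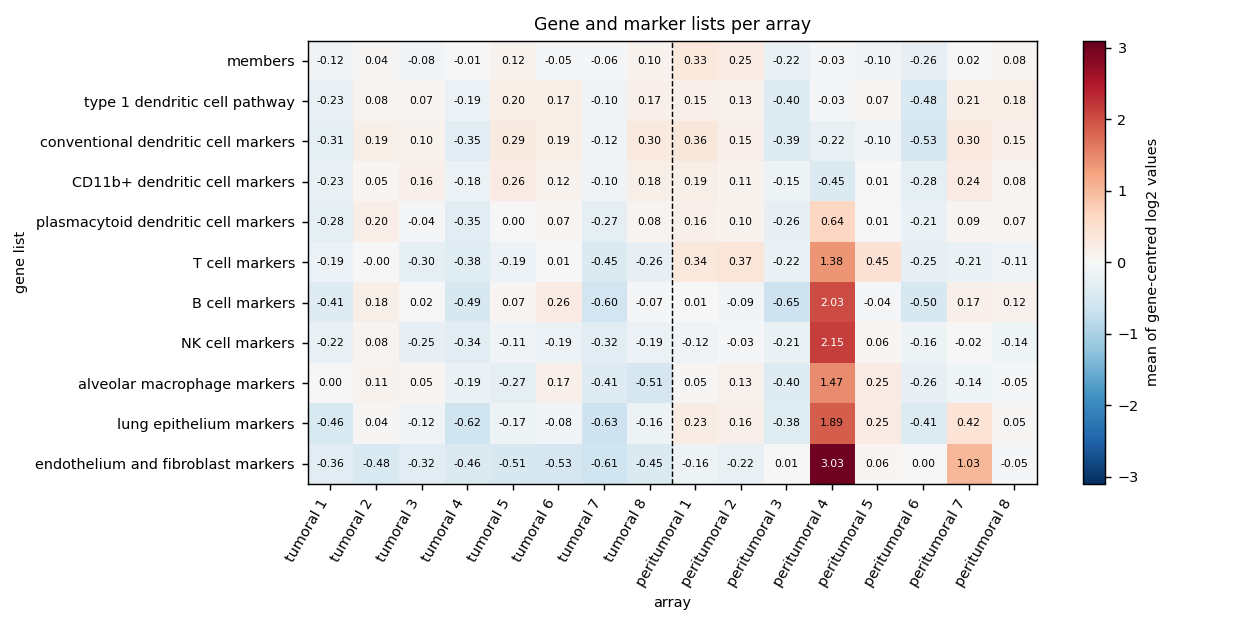
Mean of gene-centred log2 values for the members and for 10 gene and marker lists (rows) in each array (columns), tumoral left and peritumoral right of the dashed line. Peritumoral 4 has the highest value of the plasmacytoid, T, B and NK cell, alveolar macrophage, epithelial and structural lists, up to 3.03, and its member mean is -0.03.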

How the data were processed

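Per the labels' protocols, total RNA was converted to cDNA, amplified, and hybridised with a biotin label to Affymetrix arrays that cover whole transcripts. The authors deposited 1 table of 28853 probe sets by 16 arrays, read as log2 expression since its values run from 2.31 to 14.33. How background was corrected and arrays were scaled was not given in the sources used here, and the log base is assumed to be 2. Gene names came from the platform annotation, in which, of the probe sets, 21789 had 1 gene symbol, 1621 several (not used) and 5443 none. The probe set with the highest mean was kept per gene, which left 19938 genes.

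Labels were compared with limma 3.58.1 (R 4.3.3), the label as the only term, with Benjamini-Hochberg adjustment over all genes, a threshold of 0.05 and no filter on dim probe sets. limma and the exact test, which used all 12870 assignments, were tested on simulated data. Correlations used permutation tests (100000 resamples, or all orders for 8 arrays or fewer) over 45 pairs. The number of arrays limits the precision. Members, lists, named genes and alternatives were chosen with earlier results of these data known. The genes named are all members, 2 genes per list (lowest limma p), the genes of the sort and the 3 genes most correlated with Xcr1, Clec9a and Itgae; Itgb7, Xcl1, Tlr3, Cd8a and the lists' Flt3 and Zbtb46 were named afterwards. The highest correlation between 2 arrays was 0.997. Of the 8 number-matched pairs, 3 had a correlation of deviations over 0.1. Each such pair joins arrays of different deposited places, so this check cannot show whether the numbers pair the arrays. The labels state no pairing, and none was used in the main fit. Alternatives were other scalings, variance models and array weights, a filter on low means, the replicate number as a block, single arrays and peritumoral 4, 7 and 8 left out, and, chosen after seeing the data, the deposited place.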

Additional observations from a re-analysis of the deposited data

Results flagged for a closer look

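Naaa in peritumoral 4, at a log2 value of 11.85, lay far from the other 7 peritumoral arrays, the next of which measured 12.11. It was the only such value among 20 groups of 8 arrays checked (10 genes under 2 labels), where chance alone would be likely to flag about 1 in 20.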

How the results depend on the processing

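Itgae, Gcsam and Snx22 kept a negative and Clec9a, Batf3 and Cadm1 a positive difference under every alternative run for them, as Xcr1 and Irf8 kept a negative one. Over these alternatives Itgae lay between -0.58 and -0.39 (adjusted p between 0.0150 and 0.773) and Gcsam between -0.45 and -0.31 (0.00390 to 0.773). Wdfy4 turned sign in 5 fits that left out 1 array, within a range of -0.050 to 0.15, and Naaa turned to -0.0027 without peritumoral 4 and 7 and to -0.020 over the 11 arrays outside the third place; the cause was not tested. The number of genes past the threshold, 0 with all arrays, was 128 without peritumoral 7, 20 without peritumoral 8 and 0 without any other single array (range 0 to 128). It was 88 without peritumoral 4 and 7, 522 without peritumoral 7 and 8, and 1263 with the deposited place as a block and peritumoral 4 and 7 left out, and was 0 in the exact permutation and rank-sum tests (2507 and 2307 genes at an unadjusted p under 0.05). With the replicate number as a block it was 0 (1985 genes at an unadjusted p under 0.05, against 2292 without it). Fits with the deposited place were chosen after seeing the data. The members higher in tumoral arrays numbered 4 to 5. Of the 9 pairs with Itgae, 5 passed with all arrays, 1 to 6 as 1 array was left out, and 0 over the 11 arrays. They were 3 or fewer without tumoral 1, 2, 4, 5, 6 or 8 or peritumoral 2, 3, 5, 6 or 8. Over 16 arrays 10 of 45 pairs of members passed (8 positive), 7 within tumoral arrays (2 positive), 1 within peritumoral arrays, 12 without peritumoral 4 and 7, 7 over the 11 arrays, 3 without the 2 farthest arrays, and 4 with the deposited place removed. Within either label 0 pairs passed by rho. Without the 2 farthest arrays 0 passed there either, but over 6 arrays no single pair could pass on its own. The p-values with the place removed are likely too small. Gcsam and Snx22 are not above the median mean value and have no result under that filter.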
